A study of Mus musculus with 6 samples.

Results

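Cathepsins are the proteases that break down proteins inside the lysosome. The 10 genes described here, Ctsa, Ctsb, Ctsc, Ctsd, Ctsf, Ctsh, Ctsk, Ctsl, Ctss and Ctsz, were taken by symbol from the authors' deposited table of differential expression, which has 24982 gene rows. All 10 were present and all 10 passed the authors' filter on low values, among 14835 genes tested. They were measured in cumulus granulosa cells, the somatic cells that surround the oocyte, of Kun-Ming mice, an outbred stock. The comparison set 3 libraries labelled Atg5-KD (numbers 2, 3 and 4) against 3 libraries labelled control (numbers 2, 3 and 4). The label Atg5-KD is for cells transfected with short hairpin RNAs against Atg5. Library titles abbreviate these groups as ko and ctr. What the control cells received, the age of the mice and whether libraries of a group came from separate animals or cultures are not given in the sources used here, so p-values reflect only how much these 6 libraries scatter, a scatter that may be technical. Values per library were not analysed here, since the table pools the 6 libraries.

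Cathepsins are made as inactive proforms, tagged with mannose 6-phosphate in the Golgi, carried to the acidic lysosome and activated there by removal of a propeptide. Most are cysteine proteases of the papain family (cathepsins B, C, F, H, K, L, S and Z), whereas cathepsin D is an aspartic protease and cathepsin A a serine carboxypeptidase. They degrade what autophagosomes bring to the lysosome, and Atg5, the gene targeted here, belongs to the machinery that attaches LC3 to the autophagosome membrane. In the ovary, cathepsin L is a known progesterone-dependent product of granulosa cells of ovulating follicles in mice. Cathepsin S is a product of macrophages and other antigen-presenting cells, where it trims the invariant chain of MHC class II.

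In the libraries labelled Atg5-KD, 5 of the 10 cathepsin transcripts were lower (Ctss, Ctsf, Ctsc, Ctsz and Ctsd), 1 was higher (Ctsb) and 4 did not pass the test (Ctsa, Ctsk, Ctsl and Ctsh), at an adjusted p under 0.05 per the authors' deposited table. Over all tested genes, 10.5% were called lower, 10.4% higher and 20.9% either way. Among the 11090 tested genes at least as abundant as the least abundant cathepsin, 12.8% were lower, 12.2% higher and 25.0% either way. The median log2 fold change was -0.30 over the 10 cathepsins and 0.00417 over all tested genes per the authors' deposited table. Scaled to all reads, with the ribosomal RNA locus Rn45s counted in, every log2 fold change shifts by -0.30. On that scale 8 cathepsins were lower and 0 higher, beside 38.7% lower and 3.60% higher of all tested genes. Rn45s ranked 1 by base mean and stood at 4.24 ± 0.32 (SE) per the authors' deposited table. Its estimated means were 2.87e+06 normalized counts in libraries labelled Atg5-KD and 151955 in those labelled control. Without Rn45s in the total the shift was -0.03, and the cause of the Rn45s difference was not tested. Without Ctss, which stood lowest at -1.26, the median over the other 9 was -0.26. The fold changes are Atg5-KD over control as the order of both names in the table's name gives it, and the columns do not state it. Atg5 RNA did not pass the test as deposited, so deposited values show no knockdown of the targeted gene and give no check of that order. Its estimated means were 397 normalized counts in libraries labelled Atg5-KD and 414 in those labelled control, and its log2 fold change was -0.06 ± 0.14 (SE) per the authors' deposited table (Wald adjusted p = 0.822). In either order of the ratio, a fall of Atg5 by over 20.7% lies outside the 95% interval on the deposited scaling. Scaled to all reads, its log2 fold change and interval would also shift by -0.30, in the order of the table's name. That bound would then not hold, and a call of Atg5 on that scale is not given here. Atg5-KD is therefore used below as the label of the libraries. With the order turned, every sign below would turn and the values given for each group would swap, so that Ctss would have the largest rise and Ctsb would be the single member called lower. Estimated group means below were computed from the base mean, the size-factor normalized count averaged over the 6 libraries, and the fold change, and carry no error of their own.

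**Figure D1:**
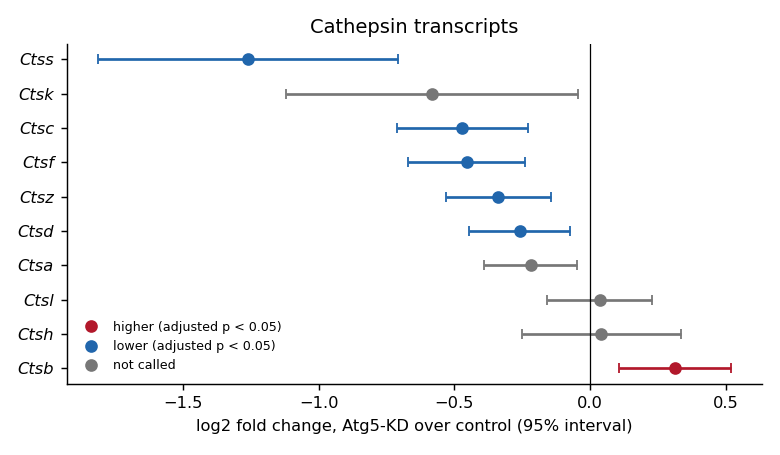
Log2 fold change of each cathepsin (Atg5-KD over control) with its 95% interval, from the authors' fold changes and standard errors. Ctss lies farthest from 0 at -1.26, Ctsb is the single gene called higher at 0.31, and the intervals of Ctsl and Ctsh include 0.

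Promoter sequences are shown for Ctss, Ctsc, Ctsf and Ctsd, members that were lower, because they hold different matches to motifs of lysosomal, interferon and myeloid genes. Ctsz, also lower, has an entry with 0 matches to these motifs and is not shown. Each runs 5′ to 3′ from 250 bases before to 50 bases after the start site, from RefSeq on GRCm38.p6, and 8 of the 10 genes had an entry. Capitals mark matches, on either strand, to CACGTG (the E-box core bound by TFEB and its relatives, which switch on lysosomal genes), GAAANNGAA (part of the interferon-stimulated response element), TTCNNNGAA (the site of STAT dimers) and GAGGAA (the core bound by PU.1, a myeloid factor).
Ctss, chr3:95526536-95526835, forward strand: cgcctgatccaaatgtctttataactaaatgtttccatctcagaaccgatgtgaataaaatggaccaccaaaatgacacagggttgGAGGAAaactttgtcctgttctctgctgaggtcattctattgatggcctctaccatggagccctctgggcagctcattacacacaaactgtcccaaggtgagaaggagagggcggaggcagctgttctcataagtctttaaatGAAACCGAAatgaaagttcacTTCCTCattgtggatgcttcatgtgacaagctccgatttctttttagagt
Ctsc, chr7:88277835-88278134, forward strand: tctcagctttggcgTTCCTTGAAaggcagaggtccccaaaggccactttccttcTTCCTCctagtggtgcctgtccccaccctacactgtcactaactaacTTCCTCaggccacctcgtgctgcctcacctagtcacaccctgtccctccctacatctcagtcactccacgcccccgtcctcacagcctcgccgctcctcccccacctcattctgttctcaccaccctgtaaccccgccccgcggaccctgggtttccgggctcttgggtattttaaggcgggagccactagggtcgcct
Ctsf, chr19:4854915-4855214, forward strand: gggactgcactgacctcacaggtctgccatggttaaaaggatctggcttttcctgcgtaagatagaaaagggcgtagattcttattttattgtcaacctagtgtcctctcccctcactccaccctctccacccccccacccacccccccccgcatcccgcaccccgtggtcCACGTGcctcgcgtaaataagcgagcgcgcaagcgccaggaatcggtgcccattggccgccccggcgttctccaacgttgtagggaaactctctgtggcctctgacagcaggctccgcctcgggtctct
Ctsd, chr7:142387778-142388077, reverse strand: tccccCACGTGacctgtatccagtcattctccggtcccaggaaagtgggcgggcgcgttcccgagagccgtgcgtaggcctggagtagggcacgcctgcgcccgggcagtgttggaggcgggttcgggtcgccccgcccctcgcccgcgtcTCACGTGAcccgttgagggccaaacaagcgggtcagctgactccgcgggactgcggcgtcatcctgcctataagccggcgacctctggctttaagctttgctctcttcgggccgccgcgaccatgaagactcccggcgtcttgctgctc
Capitals also cover TCACGTGA, a longer form that contains CACGTG, and 0 other pairs of matches overlapped.

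CACGTG stood in windows of 4 members, Ctsa, Ctsd, Ctsf and Ctsl, and in 7.15% of all 32851 promoter windows. Relative to the start site it began at position -245 and at -98 in Ctsd, and at -79 in Ctsf. Ctsa had 2 windows, and only the 1 from 164833523 to 164833822, inside the gene's span, held CACGTG. The window of Ctsl, 64370471 to 64370770, also lay inside the gene's span. The percentages count windows, whereas the members are counted as genes. Of the 4 genes with CACGTG, Ctsd and Ctsf were lower, while Ctsa and Ctsl did not pass the test. The longer form TCACGTGA, present in 0.974% of all windows, was in those of Ctsa and Ctsd. GAAANNGAA was found in Ctss alone among the members with an entry, beginning at position -21, and in 8.56% of all windows. TTCNNNGAA was found in Ctsc alone among them and in 8.30% of all windows. GAGGAA was found in Ctsc, Ctsk and Ctss and in 28.3% of all windows. The motifs were chosen after calls were known and changed after matches had been seen. Longer forms of the E-box (in 0 members and 0.326% of all windows) and of the interferon motif (in Ctss alone and 3.44%) gave way to the shorter ones above. The TATA box, in Ctss and in 13.6% of all windows, and the GC box, in Ctsc, Ctsd, Ctsf, Ctss and Ctsz and in 35.7%, were searched and are not marked. These matches describe the letters and were not tested as binding sites.

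Ctss, the cathepsin of antigen-presenting cells, was the member with the largest fall in the order of the table's name (the largest rise with the order turned). Its estimated means were 68.1 normalized counts in libraries labelled Atg5-KD and 163 in those labelled control. The log2 fold change per the authors' deposited table was -1.26 ± 0.28 (SE), a 2.40-fold fall (Wald adjusted p = 0.000129). Its 95% interval ran from -1.81 to -0.71, which is a change of between -71.5% and -38.8%. Ctss (gene 13040) spans bases 95526786 to 95556405 on chromosome 3 (GRCm38.p6, forward strand). Its standard error was the largest of the 10.

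Markers of macrophages and other leukocytes moved with Ctss. Of 21 tested markers, 14 were lower, 0 were higher and 7 did not pass the test per the authors' deposited table. Their median log2 fold change was -1.72, and the fold change of all 21 was below 0. Over all tested genes, 10.5% were lower and 10.4% higher. The estimated levels of the 23 markers listed summed to 773 normalized counts in libraries labelled Atg5-KD and 2780 in those labelled control, and 0 of the 23 had a base mean of 0. Laptm5, which sits in lysosomes of blood cells, stood at -2.75 ± 0.34 (SE) per the authors' deposited table. The complement subunits C1qc and C1qa stood at -3.66 ± 0.51 (SE) and -3.06 ± 0.45 (SE) per the authors' deposited table. Mpeg1, a pore-forming protein of macrophages, was at -1.54 ± 0.22 (SE) per the authors' deposited table. In such bulk samples, fewer cells of a type and less RNA per cell cannot be told apart, and the part of these markers in the Ctss result was not tested. MHC class II genes, whose invariant chain Cd74 is a target of cathepsin S, had 0 of 8 tested members called, 0 of them at an unadjusted p under 0.05. Cd74 itself was barely detected, with a base mean of 3.60, and the most abundant of these genes, Ifi30, a thiol reductase of the lysosome, stood at -0.08 ± 0.15 (SE) per the authors' deposited table.

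Ctss fell in libraries in which genes of the type I interferon response were higher, 20 of 20 tested per the authors' deposited table. Their median log2 fold change was 4.57. Over all tested genes, 10.4% were higher. Usp18, which removes the ubiquitin-like Isg15 from proteins, stood at 5.89 ± 0.26 (SE) and Irf7, an interferon regulatory factor, at 5.39 ± 0.25 (SE) per the authors' deposited table. Oasl2, an antiviral protein, was at 3.51 ± 0.16 (SE) and Ddx58, a sensor of viral RNA, at 3.12 ± 0.14 (SE) per the authors' deposited table. No cathepsin had a rise near these, since the only member called higher, Ctsb, rose by 0.31.

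Ctsk, the collagen-degrading cathepsin of osteoclasts and fibroblasts, lies next to Ctss on chromosome 3, from 95499210 to 95509387, with 17398 bases between them. It did not pass the test, with estimated means of 46.3 normalized counts in libraries labelled Atg5-KD and 69.4 in those labelled control. Its log2 fold change per the authors' deposited table was -0.58 ± 0.28 (SE), with a 95% interval from -1.12 to -0.04 (Wald adjusted p = 0.121). At its standard error a log2 fold change under 0.70 in size was below the threshold. On the other side of Ctss, Golph3l, a Golgi protein, stood at 0.12 ± 0.12 (SE) per the authors' deposited table (Wald adjusted p = 0.548). Of the listed markers of theca and stroma, the 2 theca genes, Insl3 and Cyp17a1, were detected but not tested. The 8 tested markers, of stromal cells, which include fibroblasts, were lower in 7 cases per the authors' deposited table, with a median of -0.83. Among them Col1a1 and Col1a2, the chains of type I collagen, stood at -1.10 and -0.89, the matrix proteoglycan Ogn at -0.90 and the stromal transcription factor Tcf21 at -1.18 per the authors' deposited table. Of the osteoclast markers 1 of 6 tested was lower, Atp6v0d2, a proton pump subunit, at -1.49 ± 0.45 (SE) per the authors' deposited table. Beside both marker lists, 10.5% of all tested genes were lower.

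Ctsc, Ctsf and Ctsz, cysteine cathepsins of moderate abundance, were lower by similar amounts. Ctsc, or dipeptidyl peptidase I, removes dipeptides from the ends of proteins and activates granule proteases of immune cells. Its estimated means were 490 normalized counts in libraries labelled Atg5-KD and 680 in those labelled control. The log2 fold change of Ctsc per the authors' deposited table was -0.47 ± 0.12 (SE), a fall of 27.9% (Wald adjusted p = 0.0014). Ctsc (gene 13032) lies on chromosome 7 from 88278024 to 88315861.

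Ctsf, an endoprotease that can also process the invariant chain in macrophages, had estimated means of 701 normalized counts in libraries labelled Atg5-KD and 960 in those labelled control. Its log2 fold change per the authors' deposited table was -0.45 ± 0.11 (SE), a fall of 27.0% (Wald adjusted p = 0.000508). Ctsf (gene 56464) lies on chromosome 19 from 4855165 to 4860918. Ctsz, a carboxypeptidase also called cathepsin X, had estimated means of 2477 normalized counts in libraries labelled Atg5-KD and 3130 in those labelled control. Its log2 fold change per the authors' deposited table was -0.34 ± 0.10 (SE), a fall of 20.9% (Wald adjusted p = 0.00554). Ctsz (gene 64138) lies on chromosome 2 from 174427494 to 174439039. The 95% intervals of Ctsc, -0.71 to -0.23, of Ctsf, -0.67 to -0.24, and of Ctsz, -0.53 to -0.14, overlapped one another.

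Ctsd and Ctsb, among the most abundant lysosomal proteases, went in opposite directions. Ctsd, the main aspartic protease of the lysosome, was lower, with estimated means of 9380 normalized counts in libraries labelled Atg5-KD and 11233 in those labelled control. The log2 fold change of Ctsd per the authors' deposited table was -0.26 ± 0.09 (SE), a fall of 16.5% (Wald adjusted p = 0.0321), with an interval from -0.45 to -0.07. Ctsb, which acts both as an endoprotease and as a dipeptidyl carboxypeptidase, was higher. Its estimated means were 15652 normalized counts in libraries labelled Atg5-KD and 12597 in those labelled control. The log2 fold change of Ctsb per the authors' deposited table was 0.31 ± 0.10 (SE), a rise of 24.2% (Wald adjusted p = 0.0176), with an interval from 0.11 to 0.52. Ctsd (gene 13033) lies on chromosome 7 from 142375910 to 142387827 and Ctsb (gene 13030) on chromosome 14 from 63122462 to 63145923. Neither call held at an adjusted p under 0.01, and scaled to all reads Ctsb stood at 0.01, not called. With the GC and length trend of the principal transcripts removed, Ctsd stood at -0.11 (adjusted p = 0.568) and Ctsb at 0.27 (adjusted p = 0.0651) by Benjamini-Hochberg adjustment of Wald statistics.

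The Ctsb count may include reads of a neighbour. In GENCODE M21, 774 exon bases of Ctsb, 12.8% of its exon bases, overlap exons of Fdft1, the squalene synthase of cholesterol synthesis, on the opposite strand. Fdft1 was higher at 0.52 ± 0.14 (SE) with a base mean of 1254 per the authors' deposited table, against 14124 for Ctsb. Sources used here do not say whether counting used strand, so reads of the shared bases cannot be assigned. Ctsa shares 495 exon bases with Pltp and 324 with Neurl2, also on the opposite strand, and both had base means far under that of Ctsa, 101 and 77.0. Gm49369, on the same strand as Ctsd, shares 808 exon bases with it, 34.4% of those of Ctsd. Gm47123, on the strand opposite to Ctsl, shares 1742 with Ctsl, and Gm49230, on the same strand as Ctsl, shares 395. Values of these annotated Gm genes were not analysed here.

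Ctsl, Ctsh and Ctsa did not pass the test. Ctsl, the endoprotease induced at ovulation, had estimated means of 12808 normalized counts in libraries labelled Atg5-KD and 12497 in those labelled control. Its log2 fold change per the authors' deposited table was 0.04 ± 0.10 (SE) (Wald adjusted p = 0.856). As deposited and in the order of the table's name, the 95% interval of Ctsl ran from a fall of 10.4% to a rise of 17.2%. Larger changes in either direction lie outside it on that scaling. Scaled to all reads, Ctsl stood at -0.26 and was lower, as were 38.7% of all tested genes. Ctsh, an aminopeptidase, had estimated means of 297 normalized counts in libraries labelled Atg5-KD and 289 in those labelled control. For Ctsh the value per the authors' deposited table was 0.04 ± 0.15 (SE) (Wald adjusted p = 0.891), with an interval from -0.25 to 0.33.

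Ctsa, the carboxypeptidase that also holds beta-galactosidase and neuraminidase in a protective complex, had estimated means of 2935 normalized counts in libraries labelled Atg5-KD and 3415 in those labelled control. It stood just outside the threshold, at -0.22 ± 0.09 (SE) per the authors' deposited table (Wald adjusted p = 0.0581). Ctsd, at 0.0321, stood just inside. Ctsl (gene 13039) spans bases 64361890 to 64370772 of chromosome 13, Ctsh (gene 13036) bases 90054267 to 90076095 of chromosome 9 and Ctsa (gene 19025) bases 164832872 to 164841032 of chromosome 2 in GRCm38.p6.

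**Figure D2:**
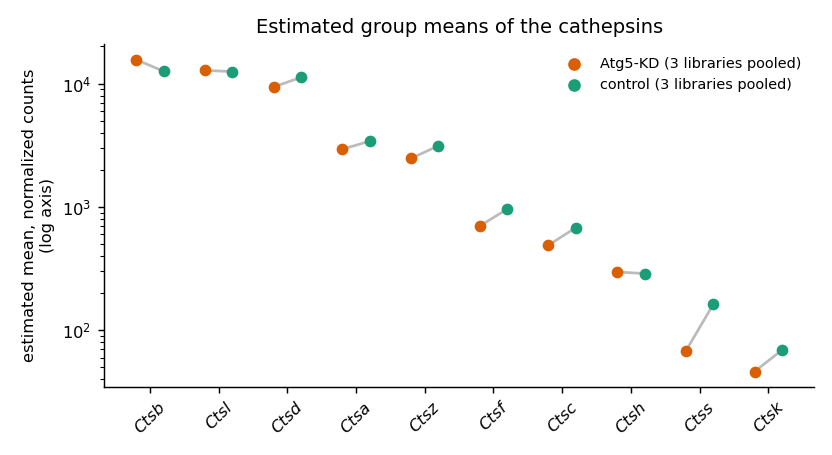
Estimated mean of each cathepsin in normalized counts on a log axis, Atg5-KD left and control right of each pair, each point pooling 3 libraries. The lines of Ctss and Ctsk are the steepest, Ctsb is the one clear rise at 15652 in Atg5-KD and 12597 in control, and heights of different genes are not corrected for length.

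Summed over the 10 genes, estimated cathepsin levels were close between the groups on the deposited scaling. Ctsb had a larger share in libraries labelled Atg5-KD, or in those labelled control if the ratio's order is turned. The estimated means of the 10 genes summed to 44854 normalized counts in libraries labelled Atg5-KD and 45034 in those labelled control, a difference of -0.399%. Without Ctsb, the other 9 summed to 29202 in libraries labelled Atg5-KD and 32436 in those labelled control, -9.97%. Ctsb took 34.9% of the summed cathepsin level in libraries labelled Atg5-KD and 28.0% in those labelled control. Ctsd took 20.9% in libraries labelled Atg5-KD and 24.9% in those labelled control. Ctsl took 28.6% in libraries labelled Atg5-KD and 27.8% in those labelled control. Ctss took 0.152% in libraries labelled Atg5-KD and 0.362% in those labelled control, so its fall hardly touched the sum. Scaled to all reads, the log2 ratio of the sums would shift by -0.30 as every fold change does, while the shares would not move. No error can be given for these sums and shares.

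Ctsb, Ctsl and Ctsd ranked 63, 81 and 120 by base mean among the 14835 tested genes. Per kb of principal transcript, a scale that allows genes to be compared, the base mean was highest for Ctsd at 4845 normalized counts per kb. Ctsb followed at 2978, Ctsl at 2051, Ctsz at 1945 and Ctsa at 871 normalized counts per kb. Ctsf at 419, Ctsc at 235, Ctsh at 181, Ctss at 85.4 and Ctsk at 38.3 normalized counts per kb made up the low end. Per kb of coding sequence, a setting added after the data were seen, the order at the top became Ctsb at 13888, Ctsl at 12627 and Ctsd at 8379 normalized counts per kb. Which of these leads therefore depends on the length used, and the transcript ends in these cells were not analysed here.

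**Figure D3:**
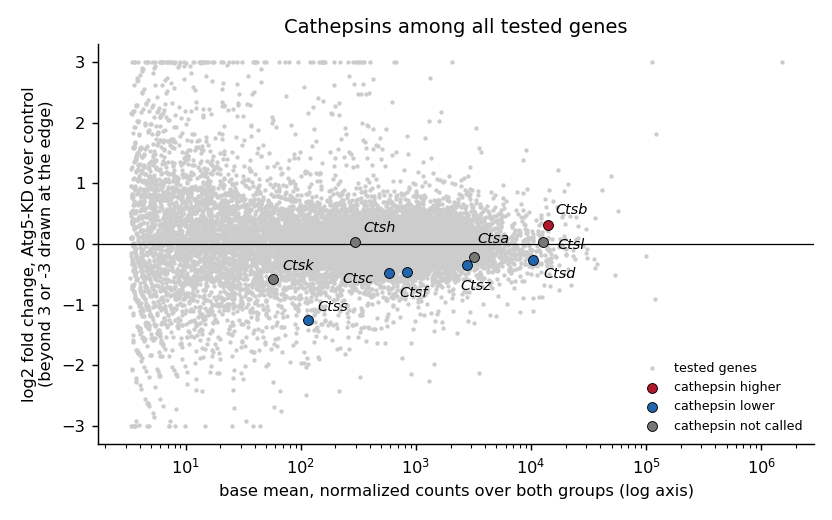
Log2 fold change (Atg5-KD over control) against base mean on a log axis, for 14835 tested genes in grey and the 10 cathepsins in colour, with values beyond 3 or -3 drawn at the edge. Ctsb, Ctsl and Ctsd sit among the most abundant genes, and Ctss and Ctsk at base means of 116 and 57.9.

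Fold changes across the table followed the GC content of the transcripts, and several cathepsin calls moved with it. The 3 lower members Ctsd, Ctsf and Ctsz have principal transcripts of 55.9%, 56.4% and 57.3% GC. Tested genes within 1 point of those values had median log2 fold changes of -0.12, -0.15 and -0.18, and 15.0%, 17.5% and 20.5% of them were lower. Ctsc and Ctss, at 43.9% and 45.9% GC, lie where the medians were 0.14 and 0.11 and where 4.5% and 4.9% of genes were lower. Once the trends in GC content and length of the principal transcript were taken out, Ctss at -1.34 (adjusted p = 4.33e-05) and Ctsc at -0.59 (adjusted p = 4.47e-05) were lower, by Benjamini-Hochberg adjustment of shifted Wald statistics, beside 7.49% lower and 6.12% higher of all tested genes. The same adjustment of Wald statistics ended the calls of Ctsf at -0.29 (adjusted p = 0.06), Ctsz at -0.16 (adjusted p = 0.333), Ctsd at -0.11 (adjusted p = 0.568) and Ctsb at 0.27 (adjusted p = 0.0651). The loss of the Ctsb call depends on the transcript used. With the longest transcript of each gene, the version computed first, Ctsb was higher at 0.29 (adjusted p = 0.0436, Benjamini-Hochberg on Wald statistics), and the principal transcript was adopted after that value had been seen. With the longest transcript, Ctss and Ctsc were lower, and Ctsf (adjusted p = 0.0824), Ctsz (0.358) and Ctsd (0.625) were not called by the same Wald adjustment, beside 7.68% lower and 6.25% higher of all tested genes. Whether the trend arose in the cells or in library preparation was not tested.

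**Figure D4:**
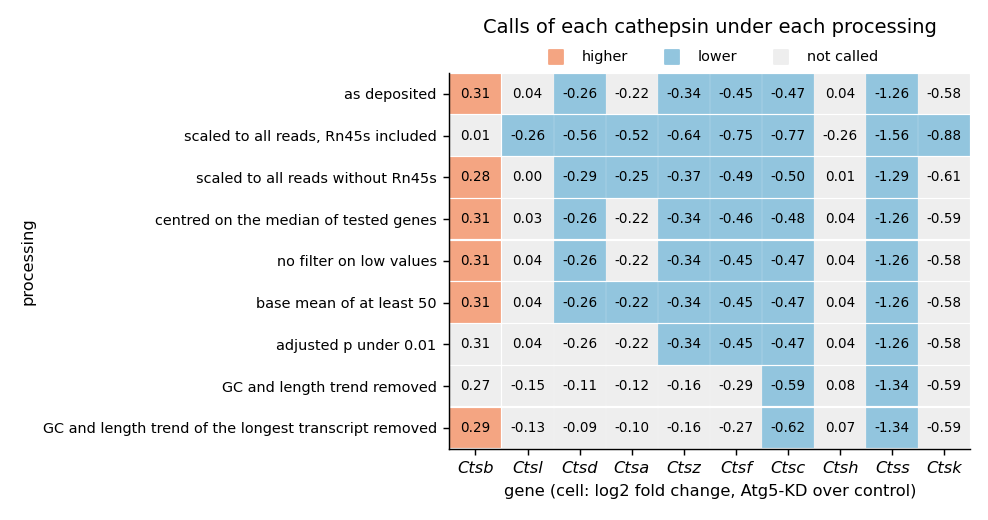
Log2 fold change (Atg5-KD over control) of each cathepsin, columns by falling base mean, under the deposited scaling and 8 other ways of processing, coloured by call. Ctss and Ctsc are lower in every row, while Ctsb is higher in 6 rows and called in neither direction in 3.

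The inhibitors of cathepsins were mixed. Of 20 listed inhibitor genes, 8 were tested, 4 were detected but not tested and 8 had a base mean of 0. By the authors' deposited table, 1 inhibitor was lower and 2 were higher, beside 10.5% lower and 10.4% higher of all tested genes. The median log2 fold change of the tested inhibitors was 0.35. Cst3, which encodes cystatin C, the abundant secreted inhibitor of cysteine cathepsins, was lower at -0.49 ± 0.11 (SE) per the authors' deposited table (Wald adjusted p = 0.000126). Its estimated means were 2378 normalized counts in libraries labelled Atg5-KD and 3329 in those labelled control. Both higher genes are serpins that act mainly on serine proteases. Serpinb9, an inhibitor of granzyme B, stood at 0.56 ± 0.14 (SE) per the authors' deposited table. Serpinb6a, whose human relative inhibits cathepsin G, stood at 0.46 ± 0.13 (SE) per the authors' deposited table. Cstb, the cystatin inside cells, was at 0.36 ± 0.15 (SE) and did not pass the test per the authors' deposited table (Wald adjusted p = 0.066). It was named after its value was seen.

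Genes that deliver cathepsins to the lysosome mostly did not pass the test. Of 17 sorting and tagging genes, 1 was higher and 0 were lower per the authors' deposited table, with a median of -0.06. The shares over all tested genes were 10.4% higher and 10.5% lower. The higher gene was Vps35, of the retromer that recycles sorting receptors, at 0.33 ± 0.10 (SE) per the authors' deposited table (Wald adjusted p = 0.00782). Of 7 partners and cofactors of cathepsins A, D and B, 1 was lower per the authors' deposited table, with a median of -0.06. It was Grn, progranulin, a precursor of lysosomal granulins, at -0.26 ± 0.09 (SE) per the authors' deposited table. Among other lysosomal proteases and peptidases, 0 of 8 tested passed the Wald test and 0 had an unadjusted p under 0.05 per the authors' deposited table. The most abundant were Lgmn and Tpp1. Lgmn, legumain, which cleaves procathepsins, stood at 0.05 ± 0.08 (SE), and Tpp1, a tripeptidyl peptidase, at 0.10 ± 0.09 (SE) per the authors' deposited table.

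Other lysosomal genes had calls in both directions. Of 31 glycosidases, lipases and membrane proteins, 3 were higher and 6 lower per the authors' deposited table, with a median of -0.10. The shares over all tested genes were 10.4% higher and 10.5% lower. Npc2, which carries cholesterol out of the lysosome, stood at 0.38 ± 0.10 (SE) and Asah1, acid ceramidase, at 0.36 ± 0.11 (SE) per the authors' deposited table. Fuca1, which removes fucose, stood at -0.34 ± 0.10 (SE) and Gaa, which degrades glycogen, at -0.29 ± 0.09 (SE) per the authors' deposited table. With the GC and length trend removed, 1 of the 31 was higher and 2 were lower, beside 6.12% higher and 7.49% lower of all tested genes.

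No tested gene of the TFEB family itself passed the test, and Tfec was detected but not tested. Of 11 tested genes of the family and its mTORC1 control, 3 were higher and 0 lower per the authors' deposited table. Over all tested genes, 10.4% were higher and 10.5% lower. The 3 were Rragd, a GTPase that recruits mTORC1 to the lysosome, at 0.55 ± 0.12 (SE), its regulator Fnip1 at 0.55 ± 0.13 (SE), and Mtor, the kinase, at 0.32 ± 0.12 (SE) per the authors' deposited table. Tfeb and Tfe3, named after their values were seen, stood at -0.20 ± 0.20 (SE) and -0.12 ± 0.12 (SE) per the authors' deposited table. With the trend removed, 1 of the 11 was higher, beside 6.12% of all tested genes. Scaled to all reads, 38.7% of all tested genes were lower and 3.60% higher. In the TFEB and mTORC1 list 0 were then higher and 2 lower. The lysosomal enzymes and membrane proteins had 0 and 21, and sorting and tagging genes 0 and 9. On that scale 20 leukocyte markers, 3 osteoclast markers and 1 MHC class II gene were also lower, and the inhibitors had 0 higher and 2 lower, the partners of cathepsins 0 and 5, and the other lysosomal proteases 0 and 5.

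**Figure D5:**
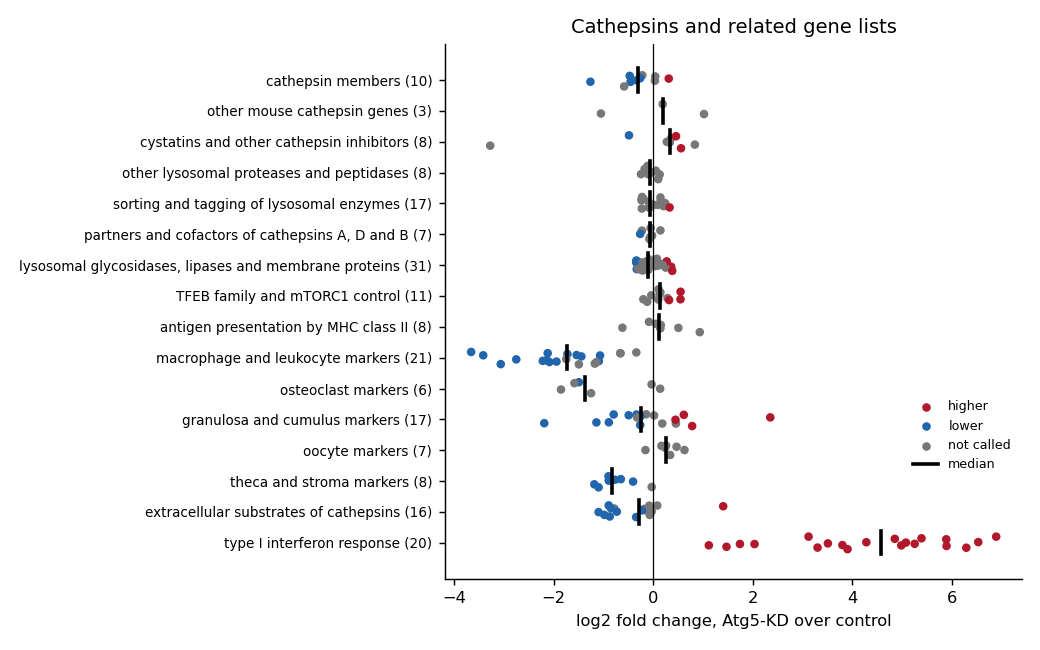
Log2 fold changes (Atg5-KD over control) of the tested genes in each list, with the number tested in brackets, the median as a black bar and vertical scatter for display. Apart from Ctss at -1.26, the cathepsins lie between -0.58 and 0.31, and the medians of leukocyte markers and interferon genes are -1.72 and 4.57.

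Markers of granulosa and cumulus cells were detected at very unequal levels. Of 18 listed, 17 were tested and 1, Cyp19a1, was detected but not tested. Amh had a base mean of 6.07 and Fshr of 93.4, while Gja1, Inha and Inhba were the most abundant, at 37682, 30063 and 24381. Beside 10.5% lower and 10.4% higher of all tested genes, 8 of 17 tested markers were lower and 4 higher per the authors' deposited table. The median of the 17 was -0.25. The lowest adjusted p-values belonged to Slc38a3, which imports amino acids into cumulus cells, at -2.19, Serpine2, a secreted protease inhibitor, at -0.89, Inhbb, an inhibin subunit, at -1.14, and Lhcgr, the receptor of luteinizing hormone, at 2.35 per the authors' deposited table. The summed estimated levels of the 18 listed markers were 112596 normalized counts in libraries labelled Atg5-KD and 125233 in those labelled control. Oocyte markers summed to 135 in libraries labelled Atg5-KD and 117 in those labelled control, and 0 of 7 tested passed the Wald test (0 at an unadjusted p under 0.05) per the authors' deposited table. Among other mouse cathepsin genes, 10 of 13 had a base mean of 0, including the placental genes near Ctsl such as Ctsj and Ctsq. The 3 detected were Ctso, Ctsw and Ctse, and 0 of them passed the Wald test (0 at an unadjusted p under 0.05) per the authors' deposited table. Ctso, the most abundant of these at a base mean of 191, stood at 0.19 ± 0.17 (SE), and Ctsw, a cathepsin of lymphocytes, at 1.02 ± 0.75 (SE) with a base mean of 7.20, per the authors' deposited table.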

How the data were processed

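The labels describe poly(A) RNA of cumulus granulosa cells, and build mm10, DESeq2 1.30.1, StringTie 2.1.4, featureCounts 1.6.2 and STAR appear, without roles, in the submitters' processing notes. One table was used, the authors' comparison of both groups, whose columns are those DESeq2 writes, per the file headers. Deposited base means are signal values, a mean of size-factor normalized counts. The log2 fold changes and standard errors, the Wald statistic (a score) and the p-values were deposited by the authors too. The statistic, p-value and Benjamini-Hochberg adjustment were recomputed, and 0 rows differed at a tolerance of 1e-06. Depth per library is unknown here, and 0 columns hold values per library.

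Group means were estimated from base mean and fold change, assuming equal groups. A gene was called at a deposited adjusted p under 0.05. Rescaled fold changes were tested again with Wald statistics and Benjamini-Hochberg adjustment in Python 3.11.15 with SciPy 1.17.1, and the procedure was tested on simulated data. The trend in GC content and length was a robust cubic fit (statsmodels 0.14.6) to the longest principal transcript, a choice made after the longest transcript had been tried, over 14680 tested genes matched by symbol to GENCODE M21. The 10 members and 15 other lists, covering other cathepsins, inhibitors, other lysosomal proteases, sorting, partners, lysosomal enzymes, TFEB and mTORC1, MHC class II, leukocyte, osteoclast, granulosa, oocyte and stromal markers, extracellular substrates and interferon response, were chosen with earlier results of these data known. Named genes are the members, Atg5, up to 4 called genes of smallest adjusted p per list or the 2 most abundant where none was called, and neighbours of called members.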

Additional observations from a re-analysis of the deposited data

How the results depend on the processing

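Ctss and Ctsc were lower under all 8 other settings, with log2 fold changes from -1.56 to -1.26 and from -0.77 to -0.47. Scaling to all reads, with the ribosomal RNA locus Rn45s counted in, shifts every log2 fold change by -0.30. Then 0 cathepsins were higher and 8 lower, 3.60% of tested genes were higher and 38.7% lower, Ctsb stood at 0.01, and Ctsl (-0.26, lower) and Ctsh (-0.26, not called) changed sign. Without Rn45s in the total the shift was -0.03 and Ctsa was also lower (adjusted p = 0.0248, Benjamini-Hochberg on Wald statistics), as it was with a base mean of at least 50 (adjusted p = 0.0492). Over its 8 settings the Wald adjusted p of Ctsa ranged from 5.7e-08 to 0.56. At an adjusted p under 0.01, 0 cathepsins were higher and 4 lower, with 6.92% of genes higher and 6.94% lower. With the GC and length trend removed, 0 were higher and 2 lower, 6.12% of genes were higher, and Ctsl stood at -0.15. That trend taken from the longest transcripts, the version computed first, gave 1 higher (Ctsb) and 2 lower, with 6.25% of genes higher and Ctsl at -0.13. The principal transcript was adopted after the Ctsb value of that version had been seen. The causes were not tested, except that a stricter threshold calls fewer genes by construction. Centring on the median of tested genes and leaving out the filter on low values kept the number of cathepsins called.

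No paired analysis was possible because the table holds no values per library, and for the same reason leaving out each replicate and the quasi-likelihood test were not run. Depth per library is unknown, and the standard errors hold counting error and scatter between libraries together, which the table does not separate. At these errors the smallest log2 fold change past the threshold was 0.72 in size for Ctss, 0.70 for Ctsk and between 0.22 and 0.38 for the other 8.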

Other observations

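Extracellular proteins that secreted cathepsins can cleave were mostly lower or not called. Of 16 tested, 8 were lower and 1 higher per the authors' deposited table, with a median log2 fold change of -0.28. Over all tested genes, 10.5% were lower and 10.4% higher. Scaled to all reads, 13 of the 16 were lower and 1 higher, beside 38.7% lower and 3.60% higher of all tested genes. Col1a1 and Col1a2, the type I collagen chains, stood at -1.10 and -0.89, and Bgn, the proteoglycan biglycan, at -0.98 ± 0.13 (SE) per the authors' deposited table. The higher gene was Vcan, versican, a proteoglycan of the expanding cumulus matrix, at 1.41 ± 0.18 (SE) per the authors' deposited table. Its estimated means were 721 normalized counts in libraries labelled Atg5-KD and 272 in those labelled control.

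Next to the other called cathepsins, Gnas, a G protein subunit gene on the same chromosome as Ctsz, stood at -0.33 ± 0.09 (SE) and Atp5e, an ATP synthase subunit, at -0.28 ± 0.13 (SE, not called) per the authors' deposited table. Actn3, a muscle actinin 297 bases from Ctsf, stood at -0.50 ± 0.36 (SE) and Ifitm10, 2130 bases from Ctsd, at 0.43 ± 0.42 (SE), neither called in either direction per the authors' deposited table. Of the remaining neighbours, Grm5 and Syt8, at base means of 0.243 and 1.19, were not tested. Rab38, Ccdc87, 2700070H01Rik and Neil2 were tested, had base means of at most 77.4, and none was called per the authors' deposited table.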
